A study of Mus musculus with 12 samples.

Results

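The Txnip distal super-enhancer viewpoint was examined through its local three-way contacts, that is, through pairs of fragments caught together with the viewpoint on one ligated DNA molecule. Txnip encodes the thioredoxin-interacting protein, which binds thioredoxin and restrains glucose uptake. The capture oligonucleotide lies at chr3:96678831-96678930 (mm10), inside the gene Ankrd35, and the start of Txnip is 120.874 kb away on the lower-coordinate side, which is called upstream here. The rule took every pair of reporter fragments in the 2 tables of this viewpoint whose midpoints both lie within 1 Mb of the first base of the oligonucleotide. It uses positions and no measured value. It found 4802 distinct pairs with 7343 counts in naive cells and 3017 distinct pairs with 4347 counts in primed cells, together 7819 of the 159167 distinct pairs listed over the 46 tables and both states. Of the distinct local pairs, 626 were seen in both states, which is 13% of the naive and 20.7% of the primed pairs.

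The cells of both states are J1, an established mouse embryonic stem cell line. Naive cells were grown in serum-free medium with 2i inhibitors and LIF, and primed cells were held for 7 days without them, with Fgf2 and Activin A added. The states were assayed in 3 biological replicates each, and this viewpoint belongs to capture pool 2. The labels give no other genotype or treatment, and these tables hold no marker of cell state. The deposited tables name no replicate. Each was taken as its state pooled, which is an assumption, so there is 1 table a state, no test across replicates can be made, and every 95% interval below covers counting error only.

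Tri-C joins by ligation the DpnII fragments that lay close together in fixed nuclei and pulls out the products that hold the viewpoint. Where such a product holds 2 or more further fragments, the reporters, these met the viewpoint on one allele. Super-enhancers are dense clusters of enhancers, and those of embryonic stem cells lie mostly near genes of cell identity. The region upstream of Txnip holds replication-dependent histone genes, U1 small nuclear RNA genes, whose product recognises the start of introns in splicing, and many tRNA genes, which RNA polymerase III transcribes. Downstream lie Pias3, which encodes a SUMO ligase and inhibitor of STAT3, Nudt17, the RNA polymerase III subunit gene Polr3c, the ubiquitin ligase gene Rnf115, and further off Cd160, Pdzk1 and Gpr89.

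The sequences that define the contact measured are shown here: the oligonucleotide that caught the viewpoint, and the Txnip promoter, the start of the gene after which the viewpoint is named. The promoter is the RefSeq sequence of GRCm38.p6 at chr3:96557707-96558006 on the plus strand, from 250 bases before the start to 50 after it. The capitals mark the only match of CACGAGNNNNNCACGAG, the letters of the element known to respond to glucose at this gene, which were chosen with this promoter in view and searched on both strands. Of 32851 RefSeq promoters of this length, 1 holds these letters (0.00304%). A match describes the letters and shows no binding.
Txnip-distal-SE oligonucleotide: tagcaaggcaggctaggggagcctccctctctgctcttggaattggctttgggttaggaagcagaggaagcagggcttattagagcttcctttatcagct
Txnip promoter: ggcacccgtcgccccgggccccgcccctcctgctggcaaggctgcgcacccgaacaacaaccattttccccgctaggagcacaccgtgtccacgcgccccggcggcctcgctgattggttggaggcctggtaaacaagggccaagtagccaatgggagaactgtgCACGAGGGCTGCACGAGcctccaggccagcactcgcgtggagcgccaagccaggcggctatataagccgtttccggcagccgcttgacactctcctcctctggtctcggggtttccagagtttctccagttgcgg

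Neither sequence holds the DpnII site GATC, so the whole promoter lies in 1 restriction fragment, chr3:96556355-96558252. No reporter fragment overlaps the oligonucleotide, and the nearest ones, chr3:96677862-96678153 and chr3:96679088-96680770, flank it on either side.

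Of all 10793 counts of the naive table, 68.0% were local (95% interval 67.1% to 68.9%), against 59.6% of the 7299 counts of the primed table (58.4% to 60.7%). The local share was thus higher in naive cells, at 1.14 times the primed share (1.10 to 1.19). The bin of 10 kb that holds the viewpoint took 29.1% of the local counts in both states and was left out of everything that follows. That left 5207 naive and 3083 primed counts, which are the denominators of the shares below unless stated otherwise. Of these, 35.5% of naive and 37.6% of primed counts joined fragments next to each other on the chromosome. The counts cannot tell whether such neighbours met the viewpoint as separate sites or as 1 piece. The median distance of a reporter from the viewpoint was 81.7 kb in naive and 68.1 kb in primed cells.

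**Figure D1:**
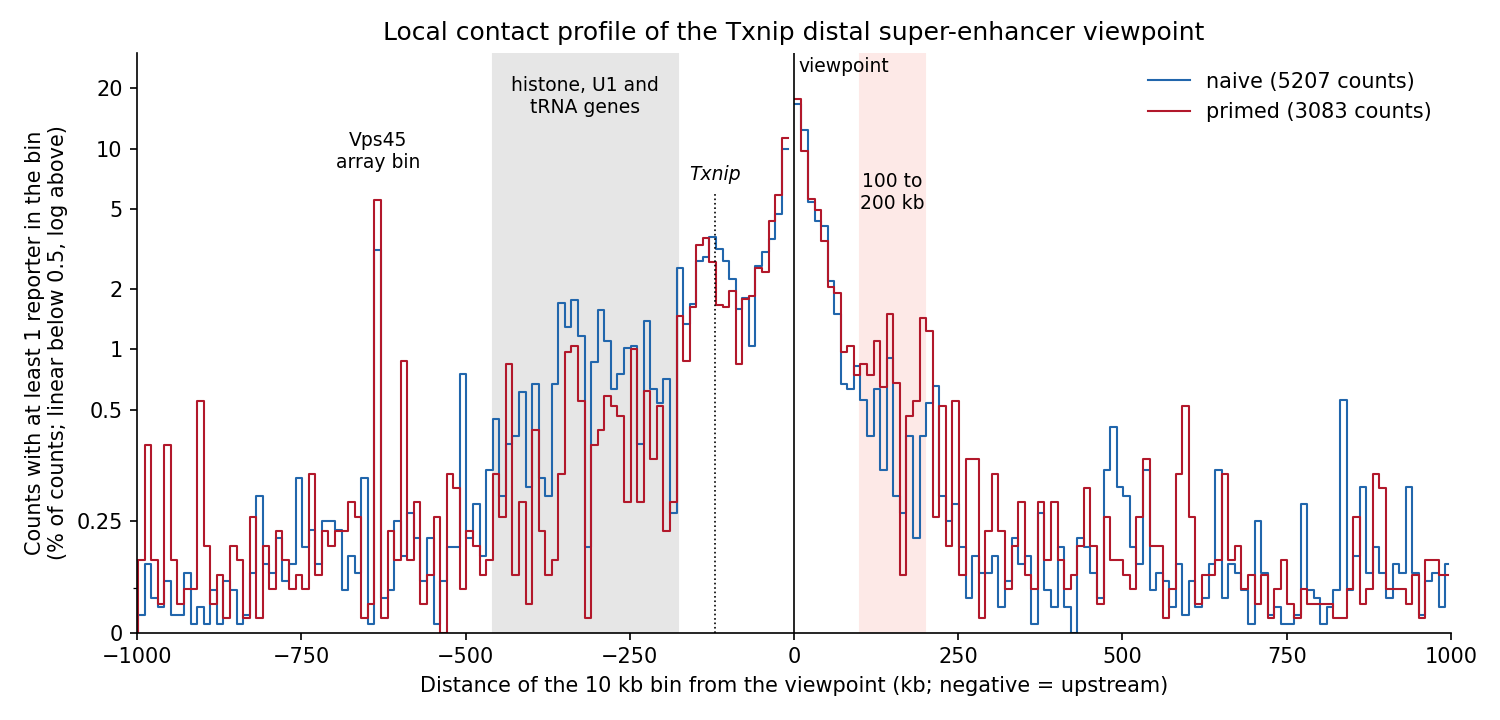
Share of counts with at least 1 reporter in each 10 kb bin (vertical axis in %, linear below 0.5 and logarithmic above) against the distance of the bin from the viewpoint in kb, for 5207 naive counts (blue) and 3083 primed counts (red), with the viewpoint's own bin left blank. Around the viewpoint the lines run together, the naive line is mostly higher in the grey stretch of histone, U1 and tRNA genes, and the primed line is mostly higher from 100 to 200 kb downstream.

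Within 100 kb of the viewpoint the states differed little. From 100 to 500 kb away the naive share was higher upstream. Downstream the primed share was higher from 100 to 400 kb. Beyond 500 kb upstream the primed share of counts was higher too, but not when each distinct pair was counted once (0.871, 0.737 to 1.03). Between the viewpoint and 100 kb downstream, 42.3% of naive and 41.7% of primed counts had a reporter (ratio 1.01, 0.945 to 1.09), and over the same distance upstream the shares were 27.5% and 29.4% (0.936, 0.861 to 1.02). From 100 to 200 kb upstream the naive share was higher, 19.1% against 15.1% (1.26, 1.13 to 1.41), and from 200 to 500 kb upstream it was 17.3% against 10.1% (1.72, 1.51 to 1.97). Downstream the order turned. From 100 to 200 kb downstream, 4.47% of naive counts had a reporter (3.93% to 5.07%) against 7.65% of primed counts (6.74% to 8.65%), a ratio of 0.585 (0.486 to 0.704) with no overlap of the intervals. From 200 to 500 kb downstream the ratio was 0.818 (0.681 to 0.985), with an interval that included 1 when each distinct pair was counted once (0.712 to 1.05). From 500 to 1000 kb it was 0.716 (0.626 to 0.820) upstream and 1.06 (0.881 to 1.28) downstream.

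In steps of 100 kb, the highest ratio was 2.14 (1.74 to 2.66), from 400 to 300 kb upstream, followed by 1.76 (1.46 to 2.14) from 300 to 200 kb upstream. These were the only windows of 20 with a naive share over 1.5 times the primed share (10%). In 4 windows (20%) the primed share was over 1.5 times the naive one. Of these 4, the windows from 100 to 200 kb and from 300 to 400 kb downstream had ratios of 0.585 and 0.662. The other 2 lie upstream, from 1000 to 900 kb (0.327) and from 700 to 600 kb (0.636), and the latter holds the bin of equal-length fragments described below and had 0.981 (0.747 to 1.29) with each distinct pair counted once. The window from 400 to 500 kb downstream, with 94 naive and 47 primed counts, had a ratio of 1.18 (0.826 to 1.72).

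**Figure D2:**
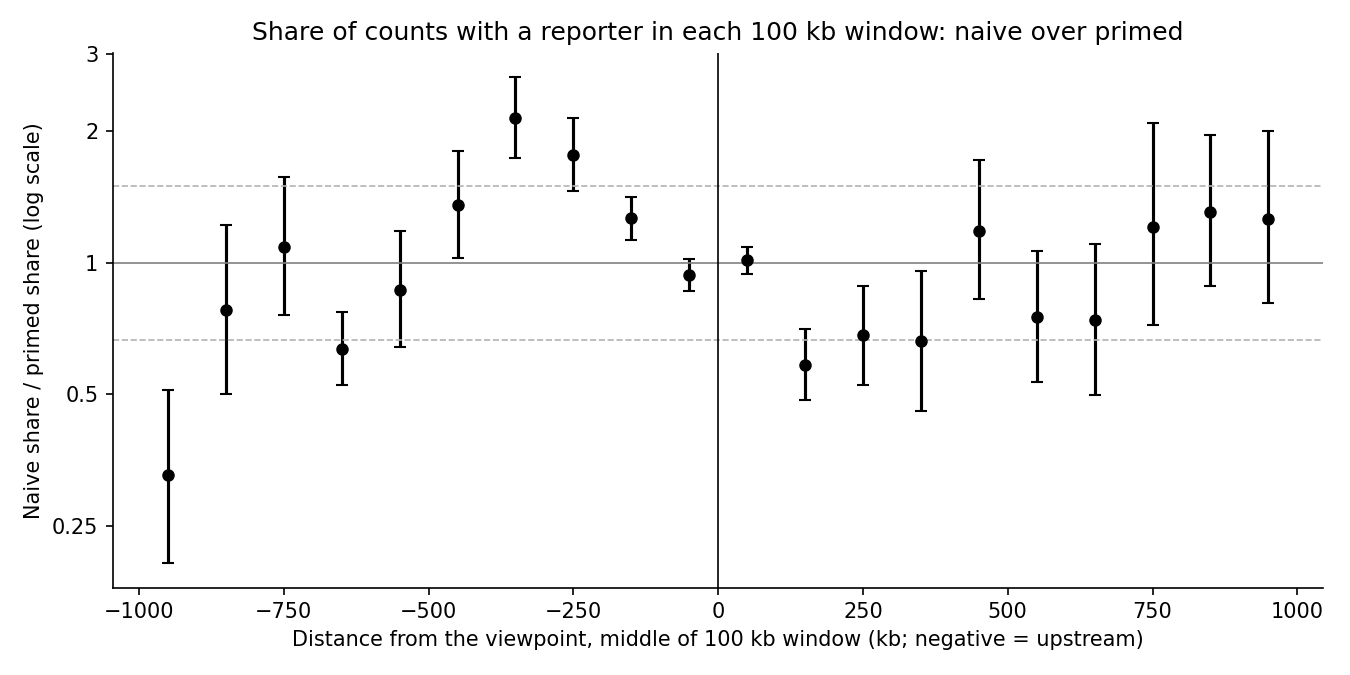
Naive over primed share of counts with at least 1 reporter in each window of 100 kb (vertical axis, log scale) against the distance of its middle from the viewpoint in kb. Points are ratios, bars are 95% intervals from counting error, and dashed lines mark 1.5-fold either way. The point from 400 to 300 kb upstream is highest, at 2.14, and the one from 1000 to 900 kb upstream lowest, at 0.327.

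The sides taken as wholes differed far less. Both reporters lay upstream in 46.5% of naive and 44.3% of primed counts (1.05, 0.981 to 1.12) and downstream in 36.0% and 39.5% (0.912, 0.848 to 0.981). In 17.5% of naive and 16.2% of primed counts the viewpoint met 1 reporter on each side (1.08, 0.969 to 1.21). Reporters more than 50 kb apart made up 30.9% of naive and 28.3% of primed counts (1.09, 1.01 to 1.19). The last interval included 1 with 1 more bin left out on each side (0.999 to 1.22), within 200 kb (0.975 to 1.25), without neighbouring fragments (0.975 to 1.15) and without the bin of equal-length fragments described below (0.971 to 1.15). The interval for both reporters downstream included 1 within 200 kb (0.875 to 1.04) and with nothing left out around the viewpoint (0.877 to 1.005). That for both reporters upstream lay above 1 with 1 more bin left out on each side (1.005 to 1.16), with each distinct pair counted once (1.02 to 1.21) and without the bin of equal-length fragments (1.02 to 1.18), and that for 1 reporter on each side with nothing left out around the viewpoint (1.01 to 1.18).

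In both states the maps of reporter pairs held a filled square around the viewpoint, whose limits were read from the maps at chr3:96500001-96740000. It runs from the last tRNA genes 178.83 kb upstream, over Hjv, Txnip, Polr3gl, Lix1l, Rbm8a and Itga10, past the starts of Polr3c and Rnf115, to a limit within Rnf115 61.169 kb downstream. Both reporters lay within it in 56.4% of naive and 55.6% of primed counts (1.01, 0.956 to 1.08), so the share of the square as a whole differed by less than counting error. Of the pairs within it, those more than 50 kb apart made up 10.4% of naive and 8.86% of primed counts (1.18, 1.02 to 1.37). The differences were larger among contacts that left it. Pairs with 1 reporter in the square and 1 upstream of it, within 500 kb of the viewpoint, made up 6.45% of naive and 4.09% of primed counts (1.58, 1.28 to 1.95), and pairs with both reporters upstream of it 10.2% and 5.45% (1.87, 1.57 to 2.24). On the downstream side the shares were 4.94% and 5.84% for 1 reporter outside (0.845, 0.696 to 1.03), and 6.26% and 10.0% for both outside (0.625, 0.533 to 0.732). A viewpoint contact that joined a region upstream with one downstream of the square was rare, with 0.326% of naive and 0.324% of primed counts.

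**Figure D3:**
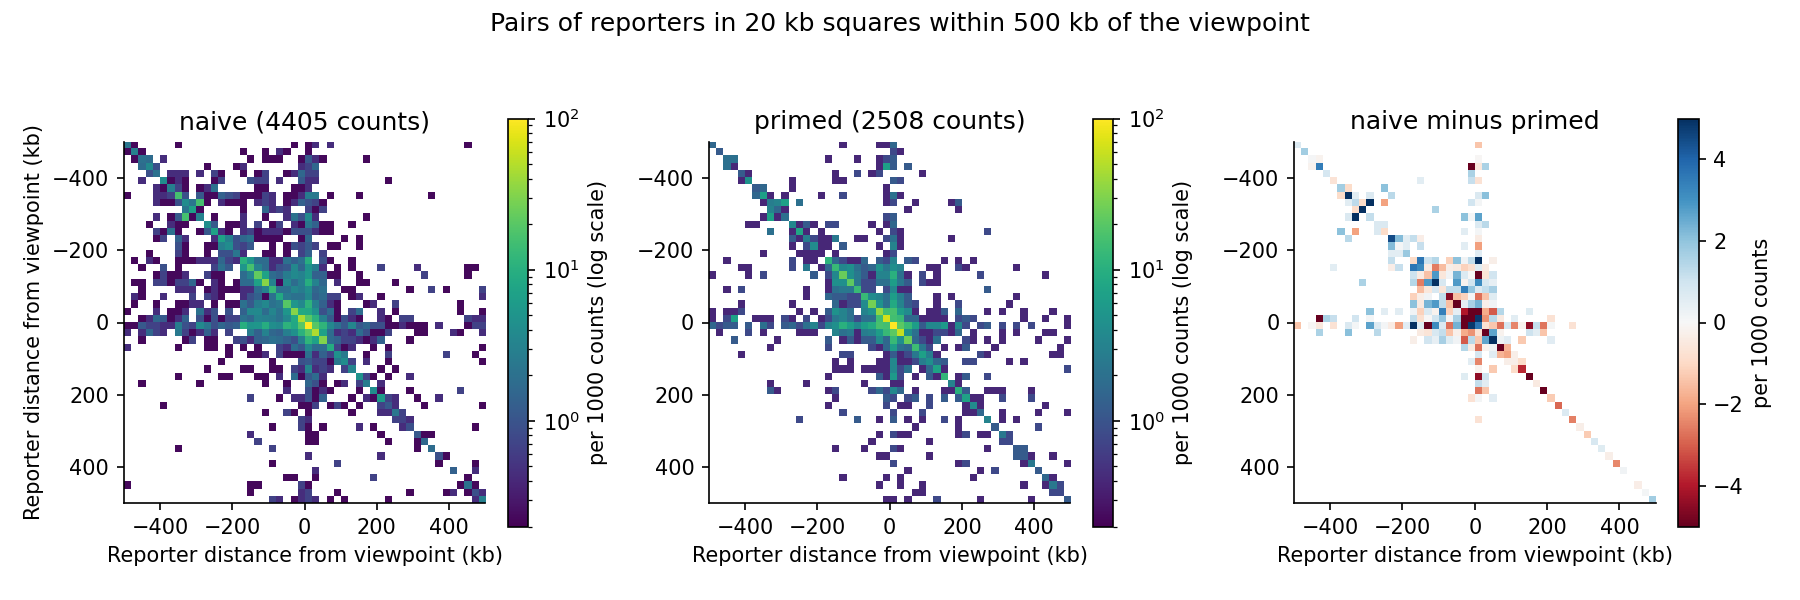
Pairs of reporters within 500 kb of the viewpoint in squares of 20 kb, for 4405 naive and 2508 primed counts (left and middle, counts per 1000 on a log colour scale) and their difference (right, naive minus primed per 1000 counts, colours ending at 5 either way, squares with at least 5 counts over both states). Axes give the distance of each reporter from the viewpoint in kb, negative upstream. The square around the viewpoint is filled in both states, the difference along the downstream diagonal is mostly red, and more squares hold a count in the naive map, whose table is deeper.

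Single bins of 10 kb were compared where they held at least 20 counts over both states, which 91 of 200 did. The naive share was over 1.5 times the primed share in 30 of them (33%) and the primed share over 1.5 times the naive share in 25 (27.5%). The median ratio was 1.07. The number higher in primed cells fell with the bin limits moved by 5 kb and without neighbouring fragments, as given below. These calls were spread unevenly. Among the 36 bins from 100 to 500 kb upstream, 21 were higher in naive and 1 in primed cells, with a median ratio of 1.58. Among the 20 bins from 100 to 500 kb downstream, 3 were higher in naive and 14 in primed cells, with a median of 0.592. Beyond 500 kb the order of the compared bins was the other way, with 2 higher in naive and 7 in primed cells of 11 bins upstream (median 0.592), and 3 and 1 of 5 bins downstream (median 2.25). Over all counts of that range downstream the ratio was 1.06 (0.881 to 1.28). Upstream the interval for the whole range included 1 with each distinct pair counted once, as given above.

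At Txnip itself the naive share was higher by less than 1.5-fold. The bin with the Txnip start held 189 naive counts, 3.63% of all (3.14% to 4.17%), and 84 primed counts, 2.72% (2.18% to 3.36%). The ratio was 1.33 (1.02 to 1.74). The intervals of the shares overlap slightly, and the interval of the ratio included 1 when the bin was narrowed to 5 kb (1.41, 0.718 to 2.94), when each distinct pair was counted once (1.36, 0.998 to 1.87), with the counts within 200 kb as the denominator (1.30, 0.998 to 1.72), with 1 more bin left out on each side (1.29, 0.974 to 1.72) and without the bin of equal-length fragments (1.30, 0.999 to 1.70). With the bin limits moved by 5 kb the ratio was 1.62 (1.24 to 2.13). The next bin, with the end of Txnip and the start of Gm15441, a long non-coding RNA gene antisense to it, held 165 naive and 51 primed counts (1.92, 1.39 to 2.68). The restriction fragment of the promoter printed above held 9 naive and 2 primed counts (2.66, 0.551 to 25.3), too few to tell the states apart.

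The second reporters of counts with Txnip came mostly from the same regions in both states. Of the 189 naive and 84 primed counts at the Txnip bin, the second reporter lay in that bin too in 58 and 28, which is 30.7% and 33.3%, and within 20 kb around it in 53 and 28. The second reporter came from within 30 kb of the viewpoint in 42 naive and 18 primed counts, 22.2% and 21.4% (1.04, 0.584 to 1.91). These are counts in which Txnip met the enhancer together with DNA next to the enhancer. Second reporters farther upstream than the surroundings of Txnip numbered 18 in naive and 2 in primed cells (9.52% and 2.38%), a ratio of 4.00 with an interval of 0.958 to 35.5. Besides the Txnip bin itself, the partner bins with the most counts were its neighbours on the end side of Txnip (28 and 11) and on the other side (14 and 8), the bin of Ankrd35 next to the viewpoint (15 and 7) and a bin of Polr3gl (11 and 3). The bin from 96530001 to 96540000, upstream of Txnip, held 0 naive and 6 primed counts, 7.14% of the primed counts at Txnip (2.67% to 14.9%), and the interval of its ratio ended at 0.377.

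Of the 54 protein-coding genes that start within 1 Mb, in 45 bins, 27 bins were deep enough to compare. Of these, 7 were higher in naive and 6 in primed cells, beside 33% and 27.5% of all bins, and their median ratio was 1.18. Pias3 had the most counts, 643 in naive and 300 in primed cells, or 12.3% and 9.73% (1.27, 1.10 to 1.46). Nudt17, its neighbour, held 281 and 173 (0.962, 0.793 to 1.17). The bin shared by the starts of Polr3c and Rnf115 held 214 and 107 (1.18, 0.935 to 1.51). The interval at Pias3 lay above 1, but it included 1 with each distinct pair counted once (0.995 to 1.40) and with 1 more bin left out on each side (0.977 to 1.32). At Polr3c and Rnf115 it lay above 1 with the counts within 200 kb as the denominator (1.31, 1.02 to 1.69), while the ratio was 0.960 with each distinct pair counted once.

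Between Txnip and the viewpoint, Itga10, an integrin subunit gene, held 185 naive and 135 primed counts (0.811, 0.646 to 1.02). Rbm8a, which encodes a core protein of the exon junction complex, held 136 and 78 (1.03, 0.776 to 1.38), and Lix1l 94 and 55 (1.01, 0.718 to 1.44). All of these intervals included 1. At Itga10 the interval lay below 1 with each distinct pair counted once (0.719, 0.554 to 0.936), without neighbouring fragments (0.677, 0.525 to 0.875) and without the bin of equal-length fragments (0.791, 0.630 to 0.995). The bin with the starts of Polr3gl, another RNA polymerase III subunit gene, and Ankrd34a stood out among them with 83 naive and 26 primed counts (1.89, 1.2 to 3.06). Hjv, a co-receptor for bone morphogenetic proteins in iron homeostasis, lies upstream of Txnip and held 88 and 50 counts (1.04, 0.728 to 1.51).

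The 7 gene start bins with a naive share over 1.5-fold higher all lay upstream, where most of the comparable gene start bins lie. Sf3b4, a splicing factor gene 506.325 kb upstream, had 39 naive and 3 primed counts (7.70, 2.45 to 38.9, and 18 and 3 with each distinct pair counted once), of which 31 and 1 joined fragments within that bin. Of the 6 with a higher primed share, 2 lie upstream, at Mtmr11 and at H2ac18. The others lie downstream. Among these were Cd160, with 47 and 46 counts (0.605, 0.394 to 0.929), and Pdzk1, a scaffold protein gene, with 16 and 21 (0.451, 0.220 to 0.907, and 0.211 to 1.04 with each distinct pair counted once). Gpr89 with 16 and 16 counts (0.592, 0.277 to 1.26) lay in the same direction but with an interval that included 1.

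The RNA genes were grouped by kind with their values in view. The bins of tRNA gene starts, 16 bins with 26 genes, were higher in naive cells in 10 cases (62.5%) and higher in primed cells in 0, with a median ratio of 1.67. Of all bins 33% were higher in naive cells. Of the 36 bins from 100 to 500 kb upstream, where most tRNA genes lie, 58.3% were, which is near the count of the tRNA bins. Most of the tRNA bins are among those 36, so this cannot set them apart from their surroundings. Their summed share was 14.9% in naive (14.0% to 15.9%) and 8.47% in primed cells (7.51% to 9.5%), a ratio of 1.76 (1.53 to 2.04). Counts with the viewpoint and 2 different tRNA gene bins made up 2.84% and 1.33% (2.14, 1.5 to 3.10). The 6 comparable bins of small nuclear RNA gene starts were each over 1.5-fold higher in naive cells, with a median ratio of 2.69. This stands beside the same 33% of all bins and 58.3% of bins in that range, which include these 6. The summed shares over all 9 bins of small nuclear RNA gene starts were 6.18% and 2.34% (2.65, 2.05 to 3.47). Of 13 comparable bins of long non-coding RNA gene starts, 10 were higher in naive cells (76.9%) and 1 in primed cells (7.69%). Of all bins 33% and 27.5% were. The summed shares of all 21 bins of long non-coding RNA gene starts were 15.5% and 10.4% (1.48, 1.30 to 1.70). Of the 6 comparable small nuclear RNA bins, 4 hold tRNA genes too. Several of the long non-coding RNA bins also hold tRNA or small nuclear RNA genes, so the groups are not separate. The 5 bins of histone gene starts took 1.94% and 1.72% (1.13, 0.801 to 1.60). Beside 33% and 27.5% of all bins, 2 of them (40%) were higher in naive and 1 (20%) in primed cells. The last, with H2ac18, H2ac19 and H3c14, held 22 naive and 26 primed counts (0.501, 0.271 to 0.919), which became 0.762 (0.344 to 1.72) with each distinct pair counted once.

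**Figure D4:**
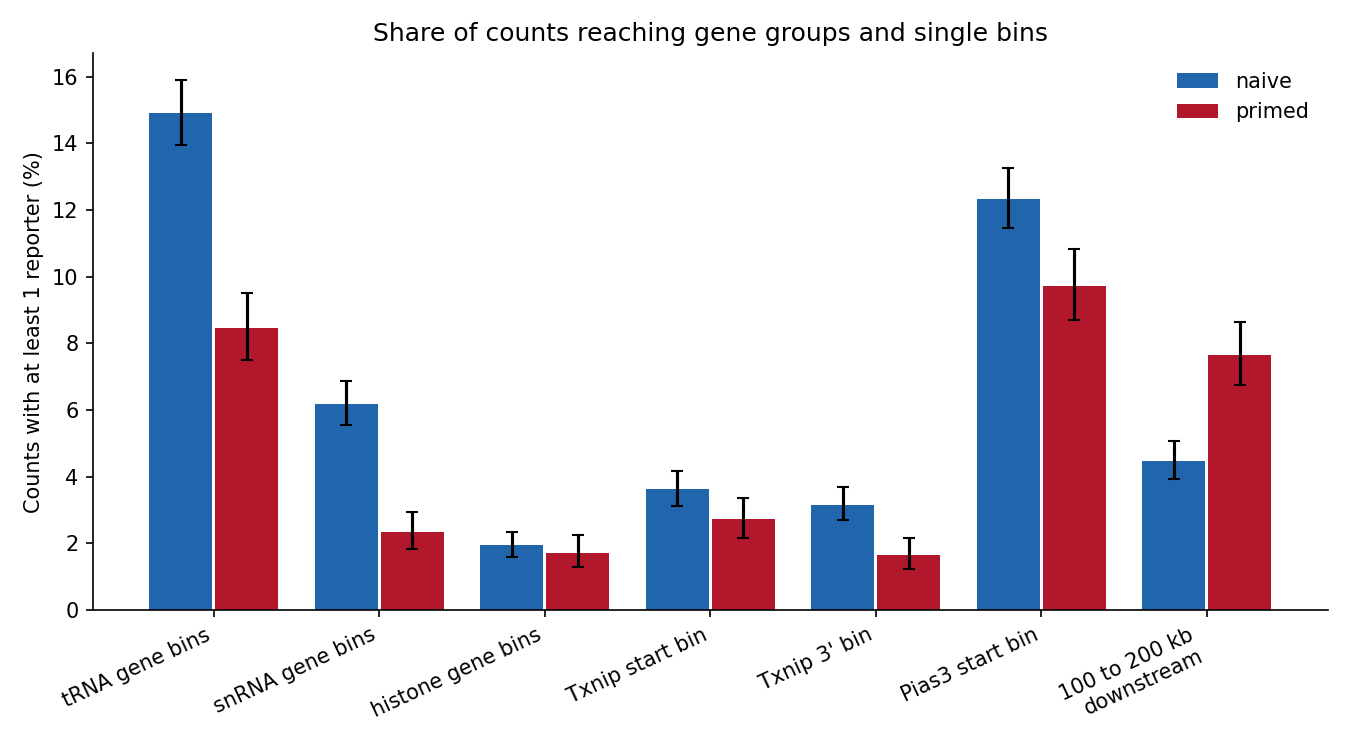
Share of counts with at least 1 reporter in the bins of each gene group or single bin (vertical axis, % of 5207 naive or 3083 primed counts), with bars for naive (blue) and primed (red) and 95% Clopper-Pearson intervals as error bars. The naive bars of tRNA genes (14.9% and 8.47%) and small nuclear RNA genes (6.18% and 2.34%) are the higher ones, the error bars of histone genes (1.94% and 1.72%) overlap, and the order is turned from 100 to 200 kb downstream.

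The stretch from the first histone to the last upstream tRNA gene, chr3:96219885-96501518, is 281.634 kb long and holds 10 histone, 25 tRNA and 8 small nuclear RNA genes. Its limits were set with the values in view. In naive cells 909 counts had a reporter in it, 17.5% (16.4% to 18.5%), against 305 in primed cells, 9.89% (8.86% to 11.0%), a ratio of 1.76 (1.55 to 2.02). Both reporters lay in it in 9.87% and 5.22% of counts (1.89, 1.58 to 2.27), and both in it but more than 10 kb apart in 206 and 60 counts (2.03, 1.52 to 2.76). So as a share of all counts, the viewpoint was more often found with separate sites of this stretch in naive cells. Of the counts with a reporter in the stretch, these were 206 of 909 in naive and 60 of 305 in primed cells. Whether they exceed what the higher share of the whole stretch gives was not tested. Counts that joined the stretch with DNA within 50 kb of the viewpoint numbered 215 and 87 (1.46, 1.14 to 1.90). Of these, 160 and 50 had a reporter in the tRNA and U1 part (1.89, 1.37 to 2.66) and 28 and 31 in the histone part (0.535, 0.309 to 0.921). The histone part's ratio became 1.01 (0.520 to 2.01) with each distinct pair counted once, an interval that still holds 0.535. The part of repeated counts in it was not tested. Those that joined it with the Txnip bin numbered 5 and 0, which is 0.0960% of naive counts, while a count of 0 allows up to 0.0973% in primed cells at 3 counts of the total (exact 95% limit 0.120%). A difference in three-way contacts of the viewpoint, Txnip and this stretch was not detectable at this depth. The tRNA and U1 part from chr3:96322074 on had a reporter in 13.8% and 7.40% of counts (1.87, 1.61 to 2.18), and the histone part in 2.02% and 1.69% (1.2, 0.850 to 1.70; 1.55, 1.04 to 2.35, with each distinct pair counted once). With both reporters in the part, the ratios were 1.84 (1.5 to 2.27) and 2.05 (1.09 to 4.14, from 45 and 13 counts). In the histone part the second ratio was 1.18 (0.369 to 4.42) for reporters over 10 kb apart, and 1.70 (0.857 to 3.62) with each distinct pair counted once. Many genes of this stretch exist in near-identical copies, and how reads that match several copies were placed is not given in the sources used here, so single bins in it are uncertain. The part of such reads in the difference was not tested.

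Among the 26 bins with at least 100 counts, the highest ratio belonged to the bin of the tRNA gene n-TNgtt4 and the small nuclear RNA gene Gm24830, 353.831 kb upstream, with 89 naive and 11 primed counts (4.79, 2.55 to 9.94), which became 2.97 (1.54 to 6.28) without neighbouring fragments. It was followed by the second Txnip bin (1.92), the Polr3gl bin (1.89), the bin of the last upstream tRNA genes n-THgtg8, n-TGtcc7 and n-TEctc13 with 132 and 45 counts (1.74, 1.23 to 2.49), and the bin of n-TQctg5 and n-TEttc3 with 92 and 32 (1.70, 1.13 to 2.63). All 5 lie upstream, as do most of the 26 bins compared. The lowest ratios were 0.561 in a bin of Vps45 (0.450 to 0.6995) and in a bin of Lix1l with 54 and 57 counts (0.379 to 0.829). Without neighbouring fragments the Lix1l bin had 0.672 (0.417 to 1.09), an interval that included 1. The lowest ratios were followed by a bin of Rnf115 downstream with 78 and 59 counts (0.783, 0.551 to 1.12) and by 2 bins of Itga10, at 0.808 (0.664 to 0.984) and 0.811. The interval of the first included 1 with 1 more bin left out on each side (0.847, 0.682 to 1.06).

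The Vps45 bin, chr3:96040001-96050000, took 162 naive and 171 primed counts, 3.11% and 5.55%, more than any other bin over 500 kb away. It holds a run of fragments of 64 bases spaced 68 bases apart, from 96044536 to 96045008, an even spacing whose sequence was not read here, and 97 naive and 133 primed counts joined fragments within the bin, on 30 and 22 distinct pairs. With each distinct pair counted once, the ratio of the bin was 0.976 (0.681 to 1.41), so its higher primed share rested on repeated counts of the same pairs. The share of counts with a reporter from 500 to 1000 kb upstream, 9.20% in naive and 12.8% in primed cells (0.716, 0.626 to 0.820), became 6.28% and 7.73% without this bin (0.813, 0.683 to 0.969). With each distinct pair counted once its interval included 1 (0.871, 0.737 to 1.03).

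Of the pairs of bins, 68 had at least 20 counts, 36 of them pairs of a bin with itself. The naive share was over 1.5-fold higher in 17 (25%) and the primed share in 15 (22.1%). Fewer pairs were called with each distinct pair counted once, and then more in primed than in naive cells, as given below. Of the 5 pairs with the highest ratios, 4 had a reporter upstream, as did most of the 68 pairs. The bins of n-TGccc5 and of n-TGccc1, which lie 30 kb apart, occurred together with the viewpoint in 21 naive counts on 11 distinct pairs and in 0 primed counts, at least 4.14-fold higher against a floor of 3 counts in the primed table, with 3.08 as the lower end of the exact interval. With each distinct pair counted once these became 2.27 and 1.55. The bin of the last upstream tRNA genes met the Pias3 bin in 23 naive counts on 10 distinct pairs and in 1 primed count (13.6, 2.21 to 561), a contact that spans the viewpoint and Txnip. The Sf3b4 bin with itself had 31 and 1 (18.4, 3.06 to 748). With each distinct pair counted once, both of these pairs had 10 and 1 (6.19, 0.881 to 269), with intervals that included 1. The n-TNgtt4 bin with itself had 33 and 2 (9.77, 2.50 to 84.0), which fell to 5 and 2 counts (1.43, 0.235 to 15.1) without neighbouring fragments. A bin 836.169 kb downstream met itself in 25 naive counts on 6 distinct pairs and in 0 primed counts, at least 4.93-fold higher against the same floor, with 3.72 as the lower end of the exact interval. With each distinct pair counted once these became 1.24 and 0.729, so the difference was no longer outside the interval. At the other end stood the Cd160 bin with itself, with 15 and 24 counts (0.370, 0.181 to 0.735; 0 and 8 without neighbouring fragments), the Vps45 bin with itself (0.432, 0.329 to 0.565, but 0.844, 0.471 to 1.54, with each distinct pair counted once), 2 bins at Gpr89 with themselves (0.461, 0.212 to 0.980, and 0.481, 0.213 to 1.07) and a pair of neighbouring bins over Itga10 with 17 and 21 counts (0.479, 0.237 to 0.954). The first Gpr89 pair had an interval including 1 with each distinct pair counted once (0.442, 0.176 to 1.07) and without neighbouring fragments (0.573, 0.153 to 2.14). The second became 0.929 (0.349 to 2.62) with each distinct pair counted once, and turned to 1.72 (0.308 to 17.4) without neighbouring fragments.

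The same measure was taken at the viewpoints Elovl6-SE1, cMyc and Klf4-distal-SE, caught from the same libraries by the same pool. Their naive over primed ratios from 200 to 500 kb away were 0.543 (0.459 to 0.641), 0.674 and 0.872 on the lower-coordinate side and 0.709, 1.13 and 0.356 on the other. Against these, the 1.72 (1.51 to 1.97) upstream of the Txnip viewpoint was the highest of the 8 values, and its interval overlapped none of the intervals of the other 7. With both reporters in that range, the 1.83 (1.53 to 2.20) upstream of the Txnip viewpoint overlapped the 1.42 (0.819 to 2.49) of Klf4-distal-SE. By whole sides the states differed more at the other viewpoints, with 0.771 and 1.24 for both reporters at lower and at higher coordinates at Elovl6-SE1, 0.556 and 1.24 at cMyc and 1.47 and 0.639 at Klf4-distal-SE, against 1.05 and 0.912 here. The local share was higher in naive cells at all 4 viewpoints, with 57.4% and 54.4% at Elovl6-SE1, 64.5% and 57.3% at cMyc and 61.3% and 46.9% at Klf4-distal-SE.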

How the data were processed

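Tri-C libraries of naive and primed J1 cells were made by the authors with DpnII, captured with pool 2 oligonucleotides and processed with CapCruncher against mm10. The deposited counts are whole numbers, 1 for each pair of reporters caught beside the viewpoint, unnormalized, in 1 table per viewpoint and state. Not given in the sources used here were the aligner and how duplicates and reads with several matches were handled. Reads of over 2 reporters enter more than 1 pair, and PCR copies are not independent molecules.

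Fragments were placed by their midpoints in 10 kb bins. A share is the counts with at least 1 reporter in a region over the local counts outside the viewpoint's bin. Depth was 5207 naive and 3083 primed counts. Shares have Clopper-Pearson 95% intervals, and ratios have exact binomial intervals of how the counts divide between the states. A bin was called at 1.5-fold with at least 20 counts. Intervals were tested on simulated independent counts, which leave out repeated counts and the spread between replicates.

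Named items were Txnip, the 10 protein-coding gene start bins with most counts, the 5 bins (at least 100 counts) and the 5 bin pairs with the highest and with the lowest ratios, the 5 main partners of Txnip and the top fragments. Some items the rule names are not reported here. Members, lists and rules were chosen with earlier results of these data known. Other genes named, the gene classes, windows, stretch and square were chosen after their values were seen. Gene positions are RefSeq on GRCm38.p6. Of the 10 small nuclear RNA, 26 tRNA and 54 protein-coding genes all could be placed. The genome at hand was of another build and was not used. Python 3.11.15, numpy 2.4.6, pandas 2.3.3, scipy 1.17.1 and matplotlib 3.10.9 were used. Alternatives changed denominators, bins, minimum counts, the excluded region and the weight of repeated pairs.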

Additional observations from a re-analysis of the deposited data

How the results depend on the processing

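No paired analysis was possible because each state has 1 table, taken as its replicates pooled. For the same reason no replicate could be left out. Of 100 recalculated values for 17 main results, 83 stayed within the interval of the reported ratio or within 1.5 times the reported count, and 17 moved further. Of these ratios whose interval excluded 1, 0 turned their direction. Among the other ratios whose interval excluded 1, 1 did. It was the histone part with DNA within 50 kb of the viewpoint (0.535), which became 1.01 with each distinct pair counted once. Turns of ratios whose interval included 1 were not counted. The share of both reporters upstream (1.05, interval including 1) became 0.994 with nothing left out around the viewpoint. Called bin pairs, 17 higher in naive and 15 in primed cells, became 7 and 9 with each distinct pair counted once. The share of both reporters downstream became 0.843 with each distinct pair counted once. The share from 200 to 500 kb upstream became 1.97 with all counts of the table as the denominator. The share from 500 to 1000 kb upstream became 0.871 (0.737 to 1.03) with each distinct pair counted once, an interval that includes 1.

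The numbers of called bins and bin pairs moved most. With a minimum of 50 counts, 14 bins were higher in naive and 8 in primed cells of 44, and 3 and 2 bin pairs of 21. With a minimum of 10 counts there were 46 and 46 bins of 156, and 43 and 34 bin pairs of 133. With each distinct pair counted once, 15 bins of 77 were higher in primed cells, as were 3 gene start bins of 23, and the bin pairs compared numbered 49. Bins higher in primed cells numbered 12 of 88 with the bin limits moved by 5 kb and 14 of 72 without neighbouring fragments. The changed minimum alters how many bins are tested. Otherwise the cause was not tested.

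The stretch of histone, U1 and tRNA genes kept a ratio of 1.63 to 2.02 under its 5 alternatives, and the region from 100 to 200 kb downstream one of 0.533 to 0.668. These alternatives, and those without neighbouring fragments or without the Vps45 bin, were chosen after seeing the data. With 3083 primed counts, a region at 0 may hold up to 0.0973% of them at 3 counts, or 0.120% by the exact interval. Spread between replicates is unknown, so a difference outside its counting interval may still lie within it.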

Other observations

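The single fragment with the most naive counts lay at chr3:96681492-96681706 in Ankrd35, 2.768 kb downstream of the oligonucleotide, with 99 naive and 48 primed counts (1.22, 0.857 to 1.76). A fragment of the main naive ones that lies between Ankrd35 and Pias3, at chr3:96693807-96693918, had a ratio of 2.20 (1.34 to 3.75). Among the fragments with the most primed counts, 1 lay outside the surroundings of the viewpoint, among the equal-length fragments at Vps45, at chr3:96044876-96044940, with a ratio of 0.273 (0.161 to 0.451).

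The most frequent fragment pairs of either state joined fragments separated only by a DpnII site. A pair in Itga10, upstream of the viewpoint, was counted 24 times in naive and 1 time in primed cells. A pair in Ankrd35, from 96686727 to 96686920, was counted 14 times in naive and 22 times in primed cells.

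Terc, which encodes the RNA of telomerase, has its middle 264.196 kb upstream, among the tRNA genes. Its bin held 39 naive and 15 primed counts (1.54, 0.830 to 3.01).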
